A study of Mus musculus with 6 samples.

Results

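The 6 adhesion genes Dsp, Cdh1, Jup, Ctnnb1, Epcam and Mpzl2 are described here on every array of a study of fetal thymus cultures. Dsp encodes desmoplakin, Cdh1 E-cadherin, Jup plakoglobin, Ctnnb1 beta-catenin, Epcam the epithelial cell adhesion molecule and Mpzl2 the myelin protein zero-like protein also called EVA. They were selected on their TCDD minus dioxane differences in thymocytes and in emigrants on these same arrays, so those differences are a description and carry no test. Each gene was followed through all of its probe sets that the platform annotation gives to 1 gene, 12 probe sets of 20380 such probe sets and 6 genes of 12393. Krt8 and Krt18, the keratins of simple epithelia, served as an epithelial reference with 4 probe sets.

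All samples came from C57BL/6 fetal thymus lobes that were taken on gestation day 15 and kept in organ culture for 6 days, to an age of 21 days post coitum. TCDD is a chlorinated dioxin that activates the aryl hydrocarbon receptor, AHR, and dioxane is its solvent. The groups were emigrants with 10 nM TCDD (2 arrays), emigrants with dioxane (2 arrays), thymocytes with 10 nM TCDD (1 array) and thymocytes with 0.1% dioxane by volume (1 array). The dioxane concentration is stated for thymocytes alone. Emigrants were the cells flushed off the lobes in buffer, and thymocytes were the cells ground out of the lobes. Both were sorted with beads against CD4 and CD8 as CD4-CD8- (double-negative, DN) cells, the earliest thymocyte stages, and RNA was taken from pooled cells. Such a sort does not take out epithelial, myeloid or other cells that carry neither marker. No source says whether arrays of 1 group came from separate cultures, so the spread between arrays on which p-values rest may be technical. In fits over both sources without a source-by-treatment term, a TCDD difference that is unlike between the sources also counts as spread.

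E-cadherin holds neighbouring epithelial cells together at adherens junctions, where beta-catenin or plakoglobin tie its tail to the actin skeleton. At desmosomes, desmogleins and desmocollins take the place of E-cadherin, and plakoglobin and desmoplakin tie them to keratin filaments. In the mouse thymus these proteins are known chiefly from the epithelial network that feeds developing T cells, and E-cadherin has also been described on early fetal thymocytes. Beta-catenin has a second role as the nuclear partner of TCF and LEF factors in Wnt signalling.

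Levels are the deposited RMA values on the log2 scale, a summary of each probe set's probes after background correction and normalisation, so a difference of 1 is a 2-fold change. RMA gives no detection call. The highest of 27 Bacillus control probe sets, which have no match in mouse RNA, was taken as the background level of an array. It was 4.92 and 4.34 on the TCDD emigrant arrays numbered 1 and 2, 4.32 and 4.45 on the dioxane emigrant arrays, 4.46 on the TCDD thymocyte array and 4.72 on the dioxane thymocyte array. Array medians lay between 4.84 and 4.88. Hybridisation spike-ins had a median of 8.26 and 8.21 with TCDD against 8.82 and 8.57 with dioxane in emigrants, and 8.21 with TCDD against 7.11 with dioxane in thymocytes. The actin 3' minus 5' difference, a sign of RNA quality, was 3.77 and 3.36 with TCDD against 3.06 and 3.01 with dioxane in emigrants, and 4.15 with TCDD against 3.48 with dioxane in thymocytes. The same difference for Gapdh was 5.60 and 4.75 with TCDD against 4.75 and 4.69 with dioxane in emigrants, and 5.86 with TCDD against 6.10 with dioxane in thymocytes.

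The emigrant arrays stood apart from each other. The 7 macrophage markers measured had a median of 9.07 and 8.53 with TCDD and 8.79 and 6.61 with dioxane in emigrants, against 4.91 with TCDD and 5.07 with dioxane in thymocytes. The 11 markers of DN T cells had a median of 5.00 and 6.35 with TCDD and 5.69 and 8.46 with dioxane in emigrants, against 8.60 and 9.41 in TCDD and dioxane thymocytes. On TCDD emigrant array 1, labelled as DN cells like the others, 6 of the 11 were above background, and the T-cell surface gene Thy1 was not. Rag1, a recombinase gene of immature lymphocytes, read 9.99 on dioxane emigrant array 2 but between 3.61 and 4.03 on the other emigrant arrays. Emigrant pairs 1 and 2 join the TCDD and dioxane arrays of the same number, which is not known to mark a shared culture. Of 6 AHR targets, 2 were at least 2-fold higher with TCDD in emigrant pair 1, 5 in emigrant pair 2 and 5 in thymocytes, where Cyp1a1 read 7.88 with TCDD against 3.99 with dioxane.

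**Figure D1:**
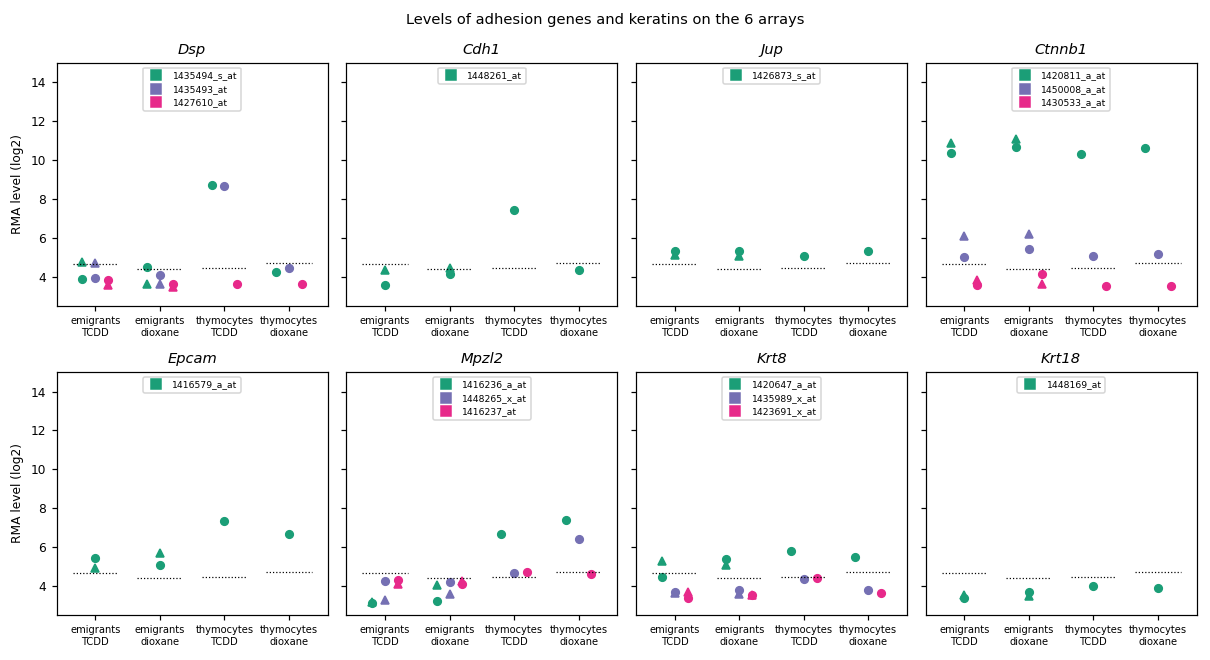
RMA level (log2, vertical axis) of every probe set of the 6 adhesion genes and of Krt8 and Krt18 in the 4 groups (horizontal axis), 1 point per array, with circles for arrays numbered 1, triangles for arrays numbered 2 and colours for probe sets. Dotted lines are the mean over a group's arrays of the highest Bacillus control. Dsp at 8.73 and 8.68 and Cdh1 at 7.42 stand out on the TCDD thymocyte array, and Mpzl2 and Epcam are lower on the emigrant arrays than on the thymocyte arrays.

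Desmoplakin and E-cadherin were the members with the largest TCDD differences, and both belonged to thymocytes. Dsp was near background in every other group and bright on the TCDD thymocyte array, and Cdh1 had the same shape. Their partners Jup and Ctnnb1 differed by less than 1.5-fold. Mpzl2 was lower with TCDD in thymocytes on 2 of 3 probe sets, past 2-fold on 1 of them, and Epcam stayed within 2-fold. Of the 12 member probe sets, 3 were at least 2-fold higher with TCDD in thymocytes, where 2.31% of all probe sets were, and 1 was at least 2-fold lower, where 2.62% were. These shares were part of how the genes were chosen, and with 1 array a group the thymocyte difference has no replicate check.

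Dsp, which anchors keratin filaments at desmosomes, has 3 probe sets. Probe set 1435494_s_at read 3.89 and 4.77 with TCDD against 4.49 and 3.64 with dioxane in emigrants, and 8.73 with TCDD against 4.24 with dioxane in thymocytes. Probe set 1435493_at read 3.93 and 4.71 with TCDD against 4.10 and 3.59 with dioxane in emigrants, and 8.68 with TCDD against 4.42 with dioxane in thymocytes. On both, the TCDD thymocyte array was the only one far above background, and the TCDD and dioxane emigrant arrays overlapped. In bulk RNA, more cells of a type that makes a transcript and more transcript per cell cannot be told apart, here and for all other members.

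The thymocyte differences of 4.49 and 4.26 held rank 1 and 2 among all 20380 probe sets, from high to low. Because Dsp was not above background with dioxane in thymocytes, only a bound holds for the fold there. The TCDD array was at least 16.1-fold brighter on 1435494_s_at and at least 15.5-fold brighter on 1435493_at. These 2 probe sets were designed from the same sequence record, AV297961, and are not independent readings. In emigrants the differences were -0.60 and -0.16 in pair 1 and 1.13 and 1.12 in pair 2. The 2-fold difference of pair 2 came from levels of 4.77 and 4.71 with TCDD, which are 0.43 and 0.38 above the background of that array. The dioxane levels of that pair, 3.64 and 3.59, were below their array's background of 4.45, so a 2-fold change is not secured there. The third probe set, 1427610_at, designed from BC026631, read between 3.48 and 3.80 on all 6 arrays, below background throughout, with a thymocyte difference of -0.01. It gives no reading of Dsp.

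The AHR core motif GCGTG was searched on either strand in RefSeq promoter windows (GRCm38.p6, from 250 bases before to 50 bases after a gene start), which were given for 4 of the 6 genes in 5 windows. Dsp is shown because it had the largest difference, and Jup, its partner in the desmosome, because it had a small one of -0.29. The Dsp window lies at chr13:38151044-38151343 on the plus strand and the Jup window at chr11:100397741-100398040 on the minus strand, and capitals mark a GCGTG match, here read on the reverse strand as CACGC.
Dsp: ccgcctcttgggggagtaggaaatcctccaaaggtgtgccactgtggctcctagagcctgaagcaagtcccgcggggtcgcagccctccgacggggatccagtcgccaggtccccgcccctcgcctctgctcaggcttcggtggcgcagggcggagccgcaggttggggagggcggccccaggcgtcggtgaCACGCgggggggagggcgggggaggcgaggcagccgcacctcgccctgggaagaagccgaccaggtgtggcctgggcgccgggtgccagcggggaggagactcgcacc
Jup: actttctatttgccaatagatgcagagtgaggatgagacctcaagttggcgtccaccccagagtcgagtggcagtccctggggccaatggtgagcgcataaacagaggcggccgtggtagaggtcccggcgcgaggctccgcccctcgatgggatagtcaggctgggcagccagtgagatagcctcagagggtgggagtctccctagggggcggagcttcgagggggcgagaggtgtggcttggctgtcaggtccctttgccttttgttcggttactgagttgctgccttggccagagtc
The Dsp match begins 58 bases before the gene start, and the Jup window holds none. Ctnnb1 has 1 match, in the stretch that its overlapping windows share, and Epcam has none. The motif is thus in 2 of 4 genes, and it occurs in 35.2% of all genes with a window, so this is a description only. The longer form TNGCGTG, found in 5.07% of all windows, is in none of the 5. A match of letters is not a bound site.

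Cdh1, the classical cadherin of epithelia, is read by 1 probe set. Its level was 3.59 and 4.33 with TCDD against 4.15 and 4.45 with dioxane in emigrants, and 7.42 with TCDD against 4.33 with dioxane in thymocytes. The TCDD thymocyte array stood alone. The other 5 arrays lay within 0.86 of each other, and the highest of them was level with its background. The thymocyte difference of 3.08 held rank 17 of 20380, and against background Cdh1 was at least 6.47-fold brighter with TCDD. In emigrants the differences were -0.56 and -0.12.

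The catenins that E-cadherin binds stayed within 2-fold in every pair. Jup, the plaque protein shared by adherens junctions and desmosomes, read 5.33 and 5.09 with TCDD against 5.31 and 5.07 with dioxane in emigrants, and 5.04 with TCDD against 5.33 with dioxane in thymocytes. Its 6 values spanned 0.29, and the TCDD thymocyte array was the lowest. The TCDD difference was 0.02 and 0.02 in emigrants and -0.29 in thymocytes.

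Ctnnb1 was bright on every array on probe set 1420811_a_at. That probe set read 10.35 and 10.90 with TCDD against 10.69 and 11.10 with dioxane in emigrants, and 10.30 with TCDD against 10.65 with dioxane in thymocytes. With emigrant arrays paired by number, the value with TCDD was the lower one in all 3 pairs, though the treatments overlapped in emigrants. The differences were -0.34 and -0.21 in emigrants and -0.35 in thymocytes, all under 1.5-fold. Probe set 1450008_a_at read 5.01 and 6.06 with TCDD against 5.41 and 6.18 with dioxane in emigrants, and 5.05 with TCDD against 5.16 with dioxane in thymocytes. There the split ran by array number and not by treatment, since the emigrant arrays numbered 2 read 6.06 and 6.18 and the other arrays between 5.01 and 5.41. The third probe set, 1430533_a_at, was below background on all 6 arrays.

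Epcam, a surface glycoprotein of epithelia that is also known on Langerhans cells, read 5.44 and 4.89 with TCDD against 5.08 and 5.69 with dioxane in emigrants. In thymocytes it read 7.35 with TCDD against 6.67 with dioxane. The TCDD difference changed sign between the emigrant pairs formed by array number, at 0.36 and -0.80, and the treatments overlapped in emigrants. In thymocytes the difference was 0.69, rank 941 of 20380. All 6 values were above background, and both thymocyte arrays lay above all 4 emigrant arrays.

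Mpzl2 encodes an immunoglobulin-type adhesion molecule described in mouse thymic epithelium and in other epithelia. Probe set 1416236_a_at read 3.11 and 3.18 with TCDD against 3.21 and 4.02 with dioxane in emigrants, and 6.65 with TCDD against 7.36 with dioxane in thymocytes. It was below background in every emigrant sample and well above it in thymocytes. Probe set 1448265_x_at read 4.25 and 3.27 with TCDD against 4.17 and 3.59 with dioxane in emigrants, and 4.65 with TCDD against 6.39 with dioxane in thymocytes. Both probe sets were lower with TCDD in thymocytes, with differences of -0.71 and -1.74, and the second alone passed 2-fold. The suffix x marks probe sets whose probes may match other transcripts too. The third probe set, 1416237_at, read between 4.08 and 4.70 over the 6 arrays and differed by 0.09 between the thymocyte arrays, the opposite sign. It was above background on 1 array, that of TCDD thymocytes, so its sign says little.

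**Figure D2:**
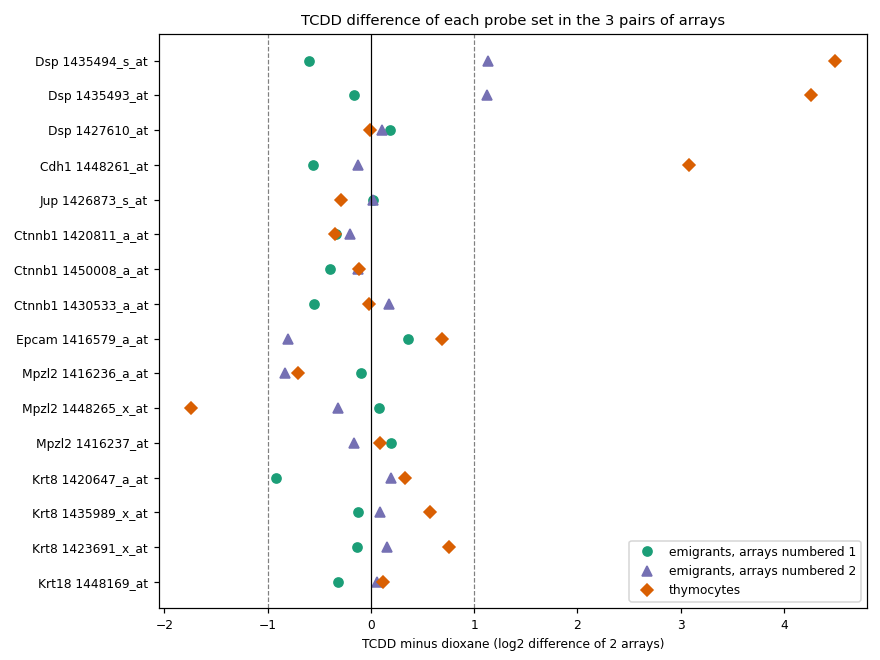
TCDD minus dioxane (log2 difference, horizontal axis) for each probe set of the 6 genes and the keratins (vertical axis), as circles for emigrant arrays numbered 1, triangles for emigrant arrays numbered 2 and diamonds for thymocytes. The thymocyte diamonds of Dsp at 4.49 and 4.26 and of Cdh1 at 3.08 lie far right of all other points, and the Mpzl2 diamond at -1.74 lies farthest left.

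The keratin reference did not pass 2-fold. Krt8 probe set 1420647_a_at read 4.46 and 5.25 with TCDD against 5.38 and 5.06 with dioxane in emigrants, and 5.81 with TCDD against 5.48 with dioxane in thymocytes. Its thymocyte difference was 0.33, beside 4.49 for Dsp. The other Krt8 probe sets, both with the suffix x, differed by 0.76 and 0.57 in thymocytes at levels below background. Krt18 was below background on all 6 arrays and differed by 0.12 in thymocytes. Krt8 partners with Krt18 in the filaments that desmoplakin binds in simple epithelia.

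Of the other junction genes, the desmoglein Dsg2 passed 2-fold in thymocytes, on 1 of its 6 probe sets. Dsg2 spans the membrane at desmosomes of simple epithelia. Its probe set 1439476_at read 3.18 and 6.08 with TCDD against 4.05 and 5.49 with dioxane in emigrants, and 6.23 with TCDD against 4.49 with dioxane in thymocytes. Since the dioxane thymocyte value was below background, the TCDD array was at least 2.84-fold brighter. In emigrants the arrays numbered 2 were above background and those numbered 1 below it, under either treatment. The Dsg2 probe set with the highest mean, 1449740_s_at, read 4.54 and 5.71 with TCDD against 4.24 and 5.34 with dioxane in emigrants, and 5.50 with TCDD against 4.97 with dioxane in thymocytes. It split the emigrants in the same way by number, with a thymocyte difference of 0.54, and the other 4 probe sets differed by 0.28 or less.

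With each gene read by its probe set of highest mean, none of 11 desmosome partners passed 2-fold between the TCDD and dioxane thymocyte arrays, and their median difference was 0.07, beside 0.01 over all probe sets. Over all 22 of their probe sets, 1439476_at was the one past 2-fold. Pkp3, a plaque plakophilin, read 5.53 with TCDD against 4.96 with dioxane in thymocytes. None of 13 adherens junction partners passed 2-fold, with a median of 0.09. Ctnna1, alpha-catenin, which couples beta-catenin to actin, read 9.38 and 9.64 with TCDD against 9.13 and 8.63 with dioxane in emigrants, and 9.33 with TCDD against 8.60 with dioxane in thymocytes. It was higher with TCDD in all 3 pairs, and only emigrant pair 2 reached 2-fold. None of 10 tight junction and related genes passed 2-fold (median -0.02), nor did any of 8 other keratins (median 0.03). For these 3 lists no other probe set passed 2-fold either.

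Receptor genes through which lymphocytes bind E-cadherin were also higher with TCDD in thymocytes, at 2-fold for 2 of 3. Itgae and Itgb7 encode the chains of the integrin that binds E-cadherin, and Klrg1 encodes an inhibitory receptor for it. Itgae read 5.46 and 7.82 with TCDD against 5.02 and 7.66 with dioxane in emigrants, and 9.18 with TCDD against 7.08 with dioxane in thymocytes. Itgb7 read 6.66 and 8.80 with TCDD against 6.72 and 7.71 with dioxane in emigrants, and 7.89 with TCDD against 6.61 with dioxane in thymocytes. Itgae was thus 2.10 higher and Itgb7 1.28 higher in TCDD thymocytes, and Klrg1 differed by 0.24. In emigrants both integrin chains were higher on the arrays numbered 2, under either treatment.

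Zeb1, a zinc finger factor known to repress Cdh1, was the one of 6 cadherin repressors past 2-fold in thymocytes. Its probe set 1418926_at read 6.35 and 7.98 with TCDD against 8.27 and 8.97 with dioxane in emigrants, and 7.26 with TCDD against 8.98 with dioxane in thymocytes. It was lower with TCDD in all 3 pairs, with differences of -1.92 and -0.99 in emigrants and -1.72 in thymocytes, while Cdh1 was higher in thymocytes alone. A second Zeb1 probe set, 1420243_at, stayed below background. None of 9 epithelial transcription factors (median -0.04) and none of 11 beta-catenin regulators and nuclear partners (median 0.02) passed 2-fold in thymocytes.

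**Figure D3:**
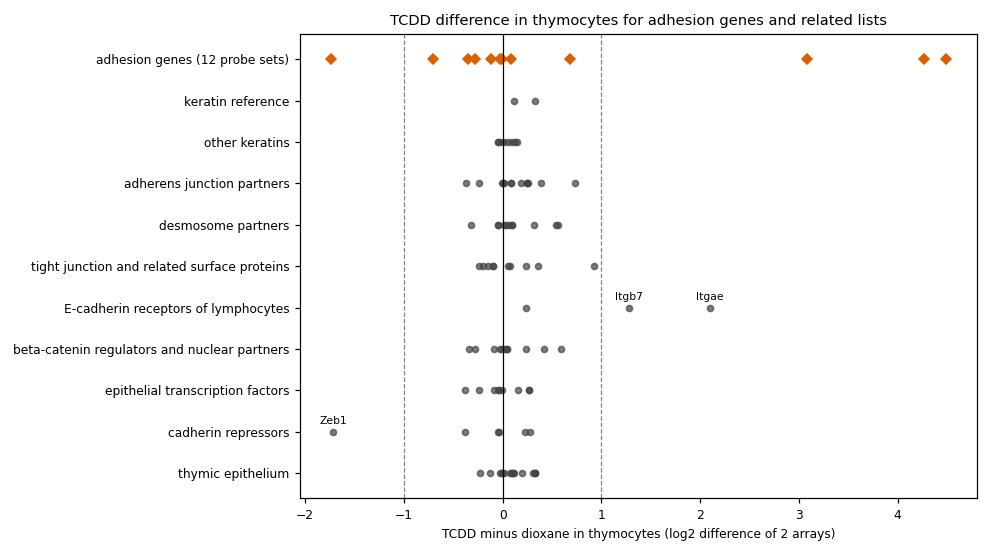
TCDD minus dioxane in thymocytes (log2 difference of 2 arrays, horizontal axis) for the 12 adhesion probe sets (diamonds) and for the measured genes of each related list (circles, 1 probe set per gene), with dashed lines at 2-fold. Dsp and Cdh1 lie apart from the keratin, junction and thymic epithelium lists, none of which passes 2-fold on the probe set drawn, and Itgae, Itgb7 and Zeb1 are the named list genes past it.

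Some markers of other cell types also differed between the TCDD and dioxane thymocyte arrays. Of 16 thymic epithelium markers measured, none passed 2-fold. Their median was 4.89 with TCDD against 4.84 with dioxane, and 10 against 8 were above background. Background itself was lower on the TCDD array, at 4.46 against 4.72, so these counts do not share a cutoff. Ccl25 and Dll4, which passed it with TCDD alone, read 4.57 and 4.75 with TCDD against 4.57 and 4.64 with dioxane. Foxn1, the defining factor of thymic epithelium, was below background at 4.26 with TCDD and 4.27 with dioxane. Of 9 dendritic and Langerhans cell markers, 2 were at least 2-fold higher with TCDD. Above background were 9 against 6, with a median of 5.78 against 5.60. Ccr7 and Zbtb46, at 4.55 and 4.48 with TCDD, passed only the lower background of the TCDD array. H2-Aa, a class II histocompatibility chain, read 10.25 with TCDD against 8.08 with dioxane on its brightest probe set. Its other probe set read 6.12 against 5.16, a difference of 0.96. H2-Ab1 read 7.05 against 5.67 on its brightest probe set, and its other probe sets differed by -0.16 and -0.07. Cd207, the defining Langerhans cell lectin, read 5.78 with TCDD against 5.48 with dioxane. Of 11 DN T-cell markers, 4 were at least 2-fold lower with TCDD (Rag1, Dntt, Bcl11b and Thy1), with Rag1 at 7.00 against 9.70 and the list median at 8.60 against 9.41. No macrophage, erythroid or fibroblast and endothelium marker passed 2-fold in thymocytes, and 1 of 9 granulocyte and mast cell markers, Cpa3, was lower. The part of these shifts in the Dsp and Cdh1 differences was not tested.

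Set side by side, the TCDD differences of Dsp and Cdh1 were small in emigrants and large in thymocytes. Averaged over the 2 emigrant arrays of each treatment, the emigrant difference was 0.26 ± 0.45 and 0.48 ± 0.37 for Dsp probe sets 1435494_s_at and 1435493_at and -0.34 ± 0.34 for Cdh1 (log2 ± SE from limma). Epcam differed by -0.22 ± 0.34 and Mpzl2 1416236_a_at by -0.47 ± 0.34 in emigrants. The TCDD difference in emigrants minus that in thymocytes was -4.23 ± 0.79 and -3.79 ± 0.64 for Dsp and -3.43 ± 0.59 for Cdh1, with the single thymocyte arrays assumed to vary like the emigrant arrays. It was -0.90 ± 0.60 for Epcam and 1.62 ± 0.74 for Mpzl2 1448265_x_at. As these contrasts are among those on which the genes were chosen, no p is given for them. In limma with Benjamini-Hochberg adjustment, 0% of all probe sets were called for TCDD in emigrants, for TCDD over both sources or for the difference between sources, while 434, 1032 and 166 had an unadjusted p under 0.05. The pooled TCDD difference of Dsp, 1.67 ± 0.91 and 1.74 ± 0.80, rests on the thymocyte pair, since without either thymocyte array it was 0.26 and 0.48, and that of Cdh1 was 0.80 ± 0.72 with it and -0.34 without it.

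Epcam and Mpzl2 read lower on every emigrant array than on either thymocyte array, in a contrast that the choice of the genes did not name, but the differences did not pass the test. Over both treatments, Epcam averaged 5.27 ± 0.36 in emigrants (SD, n = 4) and 7.01 ± 0.49 in thymocytes (SD, n = 2). Mpzl2 1416236_a_at averaged 3.38 ± 0.43 in emigrants and 7.01 ± 0.50 in thymocytes. These SDs pool TCDD and dioxane arrays, and in thymocytes they hold only the difference between the treatments. With treatment in the model, emigrants minus thymocytes was -3.63 ± 0.26 for Mpzl2 1416236_a_at and -1.74 ± 0.32 for Epcam (log2 ± SE). After Benjamini-Hochberg adjustment over all probe sets in limma neither passed, with an adjusted p of 0.205 for Mpzl2, the smallest of all probe sets, and 0.386 for Epcam. The call was 0% of all probe sets in each direction, and 1352 of 20380 probe sets, 5 of them members, had an unadjusted p under 0.05. These 5 were Epcam, every Mpzl2 probe set and Dsp 1435493_at, so 1 gene is counted several times. The Dsp value rests on the TCDD thymocyte array, which was part of how the genes were chosen. Their number is thus no result about the set.

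For Mpzl2 the call depended on the fit. It passed with the array number in the model (-3.84, adjusted p = 0.017 in limma), although nothing says that a number marks a shared culture. Both thymocyte arrays were entered there as number 1, so -3.84 compares them with the emigrant arrays numbered 1 alone. Mpzl2 also passed without 1 array. Without dioxane emigrant array 2, on which Mpzl2 was the highest of the emigrants at 4.02, the difference was -3.78 with an adjusted p of 0.0472 (limma). Over all alternative fits its difference lay between -3.84 and -3.41, and its adjusted p between 0.017 and 1. Because the emigrant level was below background, only a bound holds for the fold. Averaged over both treatments, Mpzl2 was at least 5.66-fold dimmer in emigrants on 1416236_a_at and at least 2.02-fold dimmer on 1448265_x_at. On 1448265_x_at the bound was 1.02-fold among TCDD arrays and 4.02-fold among dioxane arrays, so with TCDD almost no difference is secured there. The other Mpzl2 differences were -1.70 ± 0.48 for 1448265_x_at (adjusted p = 0.591) and -0.48 ± 0.16 for 1416237_at (adjusted p = 0.663, limma). All 3 Mpzl2 probe sets pointed the same way here, unlike for TCDD, but 1416237_at was above background on 1 of 6 arrays and adds little. Both Epcam and the 3 Mpzl2 probe sets had all 4 emigrant arrays below both thymocyte arrays, which 9.96% of all probe sets did.

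Dsp and Cdh1 differed between the sources on the TCDD arrays and hardly on the dioxane arrays, and their mean differences did not pass the test. The model has no source-by-treatment term, so this split enters their SE. Their p-values therefore do not measure the spread between like arrays alone. Emigrants minus thymocytes was -2.29 ± 0.96 and -2.47 ± 0.85 for the Dsp probe sets (adjusted p = 0.773 and 0.681) and -1.75 ± 0.77 for Cdh1 (adjusted p = 0.786, limma). Among TCDD arrays alone it was -4.40 and -4.36 for Dsp and -3.46 for Cdh1, and among dioxane arrays alone -0.18 and -0.57 for Dsp and -0.03 for Cdh1. Mpzl2 1416236_a_at has only bounds, at least 4.07-fold dimmer in emigrants among TCDD arrays and at least 7.87-fold among dioxane arrays. Epcam, above background throughout, was -2.19 among TCDD arrays and -1.29 among dioxane arrays. Leaving out the TCDD thymocyte array gives the dioxane values for these genes.

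The catenins and keratins had smaller differences between the sources, and none passed the test. For emigrants minus thymocytes, Jup was 0.01 ± 0.18, and the Ctnnb1 probe sets 0.29 ± 0.23, 0.56 ± 0.37 and 0.27 ± 0.20, with adjusted p-values of 0.956 and above in limma. Krt8 1420647_a_at was -0.60 ± 0.30 (adjusted p = 0.851) and Krt18 -0.41 ± 0.17 (adjusted p = 0.759). No gene of the related lists passed the test between the sources. Desmosome partners were lower in emigrants for 10 of 11 genes with a median of -0.24, and thymic epithelium markers for 10 of 16 with a median of -0.08, beside -0.02 over all probe sets. The median over the 12 member probe sets was -1.09. It counts several probe sets of 1 gene, and its Dsp and Cdh1 values of -2.29, -2.47 and -1.75 rest on the TCDD thymocyte array. That array was part of how the genes were chosen, so this median is no result about the set. The macrophage and DN T-cell markers given above differed between the same arrays. So did 9 granulocyte and mast cell markers, with medians of 9.50 and 6.05 with TCDD and 8.10 and 6.38 with dioxane in emigrants, against 5.23 with TCDD and 5.03 with dioxane in thymocytes. The Gapdh 3' minus 5' difference was lower on all 4 emigrant arrays than on both thymocyte arrays. The part of these in the Epcam and Mpzl2 differences was not tested. Without both emigrant arrays numbered 1, a choice made after the data were seen, Mpzl2 1416236_a_at was -3.41 and Epcam -1.72.

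**Figure D4:**
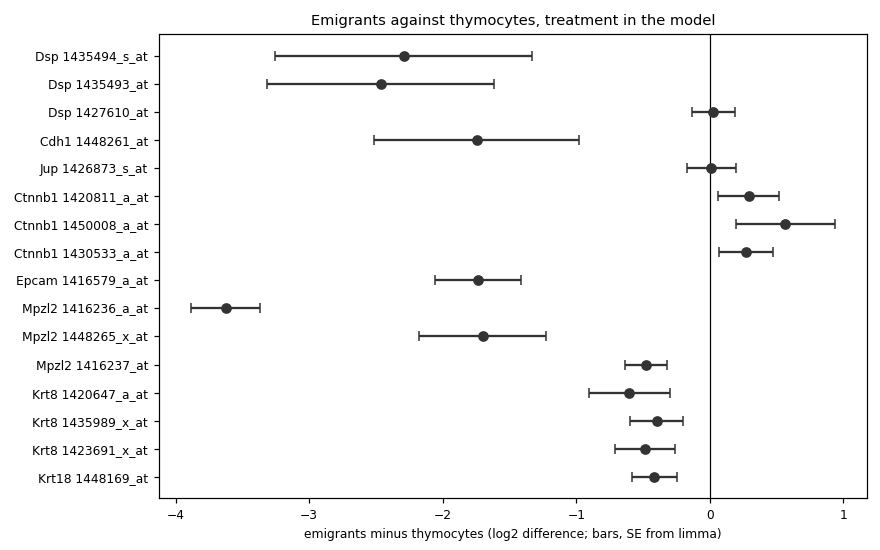
Emigrants minus thymocytes (log2 difference from limma with treatment in the model, horizontal axis) for each probe set of the 6 genes and the keratins (vertical axis), with bars of 1 SE. Mpzl2 1416236_a_at at -3.63 has the largest difference with a short bar, and the wide bars of Dsp and Cdh1 go with their split by treatment.

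The genes whose profile over the 6 arrays was most like that of a member were found by the root-mean-square difference of mean-centred log2 levels, for the 7 probe sets that ranged over at least 1 unit. With 6 arrays, of which 1 or 2 set the shape, likeness here is a description. The gene nearest to Dsp was Cdh1, at 0.64 and 0.63 for the Dsp probe sets 1435494_s_at and 1435493_at, followed by the AHR targets Cyp1a1 (0.67 and 0.65) and Scin (0.81 and 0.71). Scin, the actin-severing protein adseverin, read 7.06 and 6.57 with TCDD against 5.21 and 4.55 with dioxane in emigrants, and 10.30 with TCDD against 6.37 with dioxane in thymocytes. Scin thus differed in all 3 pairs. Dsp differed clearly in thymocytes alone, since its difference in emigrant pair 2 was taken from a dioxane value below background. The genes nearest to Cdh1 were Cntnap2 (0.42), Pou2af1 (0.53), a coactivator of B cells, and Aldh1b1 (0.54), each brightest on the TCDD thymocyte array.

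Epcam lay nearest to Tomm7 (0.23), Rnf157 (0.28) and Cnpy2 (0.30). Mpzl2 1416236_a_at lay nearest to Ptprf (0.49), a receptor phosphatase of adhesion sites, Ptcra (0.57), the pre-T-cell receptor alpha chain of DN thymocytes, and Rnf157 (0.67). Ptcra read 5.00 and 4.87 with TCDD against 5.56 and 7.16 with dioxane in emigrants, and 9.83 with TCDD against 9.86 with dioxane in thymocytes. It was highest among emigrants on dioxane array 2, as Mpzl2 was. Mpzl2 1448265_x_at lay nearest to Hdlbp (0.27), Sf3a2 (0.30) and Ints7 (0.32), so the Mpzl2 probe sets shared none of their nearest genes. Ctnnb1 1450008_a_at lay nearest to Cnep1r1 (0.08), Mbnl1 (0.10) and Rnf146 (0.10).

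**Figure D5:**
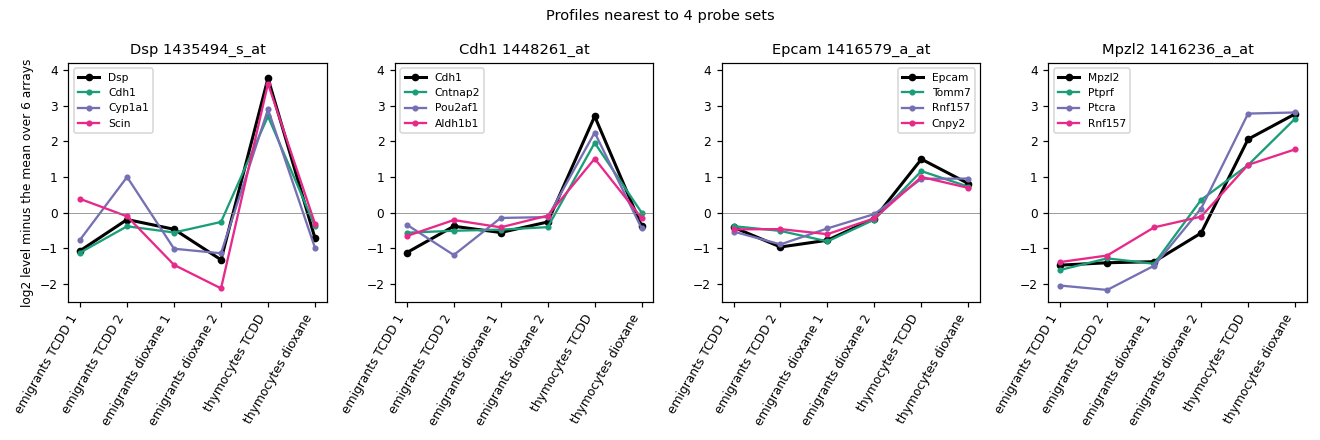
Mean-centred log2 level (vertical axis) on the 6 arrays (horizontal axis) of a Dsp, a Cdh1, an Epcam and an Mpzl2 probe set in black and of their 3 nearest genes in colour. Dsp, Cdh1, Cyp1a1 and Scin peak together on the TCDD thymocyte array, and Mpzl2 and Ptcra are high on both thymocyte arrays.

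In the RefSeq annotation of GRCm38.p6 the genes lie apart from each other. Dsp is at chr13:38151294-38198577, Cdh1 at chr8:106603350-106670247, Jup at chr11:100368856-100397839 and Epcam at chr17:87635979-87651127. Ctnnb1, at chr9:120933400-120960507, and Mpzl2, at chr9:45042344-45054043, share a chromosome.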

How the data were processed

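The 6 samples were 1 Affymetrix array each, of 22690 probe sets. The deposited log2 values were made with RMA, per the submitters' processing notes, and the log2 scale is read from their range. No version is given in the sources used here. Per the labels' protocols, RNA was amplified before labelling. RMA compresses the fold changes of dim probe sets.

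No further normalisation was applied. Left out were 64 control probe sets, 691 annotated to several genes and 1555 annotated to none. Of the 20380 left, 20351 matched the RefSeq gene table by Entrez ID, and no symbol changed. Linear models were fitted to all of them with limma 3.58.1 in R 4.3.3, with Benjamini-Hochberg adjustment and calls at an adjusted p under 0.05. The residual degrees of freedom were 2 or 3. Thymocytes, with 1 array a group, were given as differences of at least 2-fold, without a test. The fits were tested on simulated data. The number of arrays limits the precision.

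The members and all gene lists were chosen with earlier results of these data known. All members were named, and of a list its genes past the call (at most 4 by size); Pkp3, Dsg2 with its probe sets, Ctnna1, Foxn1 and Cd207 were named after their values were seen. Genes of a list that no single-gene probe set reads are not analysed here. Alternatives were other normalisations, 1 probe set per gene, a filter on level, a trended prior, a block on array number, 1.5-fold calls and leaving out each array.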

Additional observations from a re-analysis of the deposited data

Results flagged for a closer look

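For 3 member probe sets the sources opposed each other, with a TCDD difference of one sign in thymocytes and of the other sign in both emigrant pairs. The pairs go by array number. With the arrays paired the other way, none of the 3 would have a shared sign in emigrants. Cdh1 1448261_at, level with or below background on the emigrant arrays, differed by -0.56 and -0.12 in emigrants and by 3.08 in thymocytes. Jup 1426873_s_at differed by 0.02 and 0.02 in emigrants (0.0167 in pair 1 and 0.0185 in pair 2) and by -0.29 in thymocytes. Dsp 1427610_at, below background on every array, differed by 0.18 and 0.11 in emigrants and by -0.0079 in thymocytes. The fitted TCDD difference in emigrants minus that in thymocytes was -3.43 ± 0.59 for Cdh1, 0.30 ± 0.42 for Jup and 0.15 ± 0.40 for Dsp 1427610_at (log2 ± SE from limma). No probe set at all was called in this contrast. With genes chosen on TCDD results, these values are a description and carry no test.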

How the results depend on the processing

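Of 104 counts under alternatives, 97 stayed within 1.5 times the reported count. Every contrast fitted with limma had a reported count of 0, so most of the 97 set 0 against 0 and say little about stability. Of the values of single probe sets 703 stayed, 24 moved by more than the spread, 9 turned their sign and 2 newly passed the test. In thymocytes, 2 member probe sets were past 2-fold with 1 probe set per gene and 1 with the filter on level, which both test fewer probe sets, and 2716 of all probe sets were past 1.5-fold. For emigrants minus thymocytes, the fit with the replicate block called 142 probe sets, 1 of them a member (Mpzl2 1416236_a_at, -3.84, adjusted p = 0.017 in limma). Both thymocyte arrays count as number 1 in it, so it compares them with the emigrant arrays numbered 1 alone. The 1 minus 2 difference of TCDD and dioxane emigrants correlated at 0.54 over probe sets, but nothing says that a number marks a shared culture. Leaving out 1 array at a time gave 0 to 6 called probe sets and 0 to 1 called members, with 6 and 1 without dioxane emigrant array 2. Near-zero differences turned sign: leaving out 1 array gave -0.14 to 0.16 for Jup and -0.0529 to 0.10 for Dsp 1427610_at. Without both emigrant arrays numbered 1 they were -0.11 and -0.0641, and with dioxane arrays only -0.14 and -0.0529, both alternatives chosen after seeing the data. The cause was not tested. The thymocyte difference allows no left-out array. Levels below the Bacillus controls limit what can be said of Dsp and Cdh1 outside TCDD thymocytes, of Mpzl2 in emigrants and of Krt18.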
